A study of Mus musculus with 18 samples.

Results

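The comparison described here asks which responses to 2 altered copies of Ifng belong to the ovary or the uterus and which are shared by both. For each gene the log2 fold change of homozygous (ARE-/-) over wild-type (WT) mice was taken in the ovary and in the uterus, and the second was subtracted from the first. This value is called the organ difference below. It is positive where the response was higher in the ovary and negative where it was higher in the uterus. Membership was set by the labels for tissue and genotype, and 12 of the 18 libraries enter it, 3 in each of 4 groups: uterus WT, uterus ARE-/-, ovary WT and ovary ARE-/-. The 6 heterozygous (ARE+/-) libraries, 3 per organ, entered no comparison. They helped to set which genes were tested, the scaling and the estimate of the spread. All mice were C57B6/J, aged 20 to 25 weeks, and the whole-organ RNA was sequenced as read pairs. The design text speaks of 3 mice per genotype, while the labels do not tie a uterus to an ovary of the same animal, so the organs were treated as separate samples. The p-values therefore measure the spread between these libraries. Uterus WT replicate 1 and ovary ARE-/- replicate 6 carry the word backup in their titles, and no stage of the estrous cycle is given.

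Ifng encodes interferon gamma, a cytokine made mainly by T cells and natural killer cells. It binds its receptor on almost every cell type and starts signalling that switches on genes for antigen presentation, for guanylate-binding proteins and immunity-related GTPases that attack intracellular microbes, and for chemokines that recruit T cells. The AU-rich element (ARE) in the tail of the Ifng transcript marks it for decay, and the genotype names are read here as copies that lack or alter it; the labels do not spell the name out. Natural killer cells are abundant in the normal mouse uterus and rare in the ovary, whereas the ovary holds follicles and corpora lutea that make steroid hormones.

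The targeted gene rose in both organs. Ifng (chromosome 10, 118276951 to 118281797, GENCODE M32) had 0.113, 0.135 and 0 CPM (reads of the gene in each 1e6 of the adjusted library) in the WT uterus libraries and 2.74, 3.33 and 1.76 in the ARE-/- ones. In the ovary it had 0.0972, 0 and 0.0959 CPM in WT and 1.2, 0.911 and 1.18 in ARE-/-. No ARE-/- library of either organ overlapped the WT libraries. The WT values rest on few reads, so the size of the fold changes is uncertain. A level of 3 counts stood for 0.0662 to 0.0798 CPM of the total counts in the WT libraries. The uterus showed a log2 fold change of 4.92 and the ovary one of 4.03, and the organ difference of -0.90 ± 1.18 (SE) did not pass the test (edgeR quasi-likelihood test, adjusted p = 0.79).

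Libraries held 33185496 to 49720354 counts. Organ labels matched defining markers: Hoxa11 was 52.5 to 306 CPM in the uterus libraries and 0.588 to 5.56 in the ovary ones. Ovgp1, a secreted protein of the oviduct, reached 1252 to 3184 CPM in the ovary libraries. Uterus ARE-/- replicate 1 stood apart. It had 145 CPM of the granulosa cell gene Inha against 6.53 to 9.33 in the other 5 uterus libraries compared, and 178 counts of the oocyte gene Zp3 against 0 in each of them. The summed level of 5 fat markers (Adipoq, Plin1, Cidec, Lep and Retn) was 3619 CPM there. In the other uterus ARE-/- libraries that sum was 585 and 295, against 13.1 to 21.3 in the WT uterus. In the ovary that sum was 63.9 to 80.3 in WT and 397, 689 and 23.3 in ARE-/- replicates 2, 3 and 6. The red cell markers Hba-a2, Hbb-bs and Alas2 summed to 4051, 758 and 475 CPM in uterus ARE-/- replicates 1, 2 and 3, and to 58.8 to 125 in WT. The smooth muscle gene Actg2 had 2934, 202 and 133 CPM there, and 635 to 644 in WT. Without uterus ARE-/- replicate 1, 4 of 12 smooth muscle genes fell in the uterus. Their median organ difference went from 0.48 to 1.23. Uterus WT replicate 2 also stood apart from its group, with 12.4 CPM of Inhbb against 695 and 625, and 9.87 CPM of Oxtr against 127 and 138.

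Of 26682 genes tested, 45 (0.169%) had an organ difference with an adjusted p under 0.05 in edgeR's quasi-likelihood test. In 16 (0.06%) the response was higher in the ovary, and in 29 (0.109%) it was higher in the uterus. An unadjusted p under 0.05 was found for 3752 genes, these 45 included. Within the organs, 1002 genes (3.76%) changed in the ovary, 824 up (3.09%) and 178 down (0.667%), and 2877 (10.8%) changed in the uterus, 1907 up (7.15%) and 970 down (3.64%). Both organs changed in the same direction for 569 genes (2.13%), of which 550 rose and 19 (0.0712%) fell. A gene was called shared where both organs changed in the same direction, the organ difference was not called, and its 95% interval lay within 1 log2 unit of 0, that is within 2-fold. This held for 145 genes (0.543%), 128 rising and 17 (0.0637%) falling. For 421 the interval was too wide to decide, and 3 were called different in size. The calls within the organs were unequal in number, but a gene called in 1 organ alone is not thereby different: 2269 genes were called in the uterus alone and 420 in the ovary alone without an organ difference that passed.

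**Figure D1:**
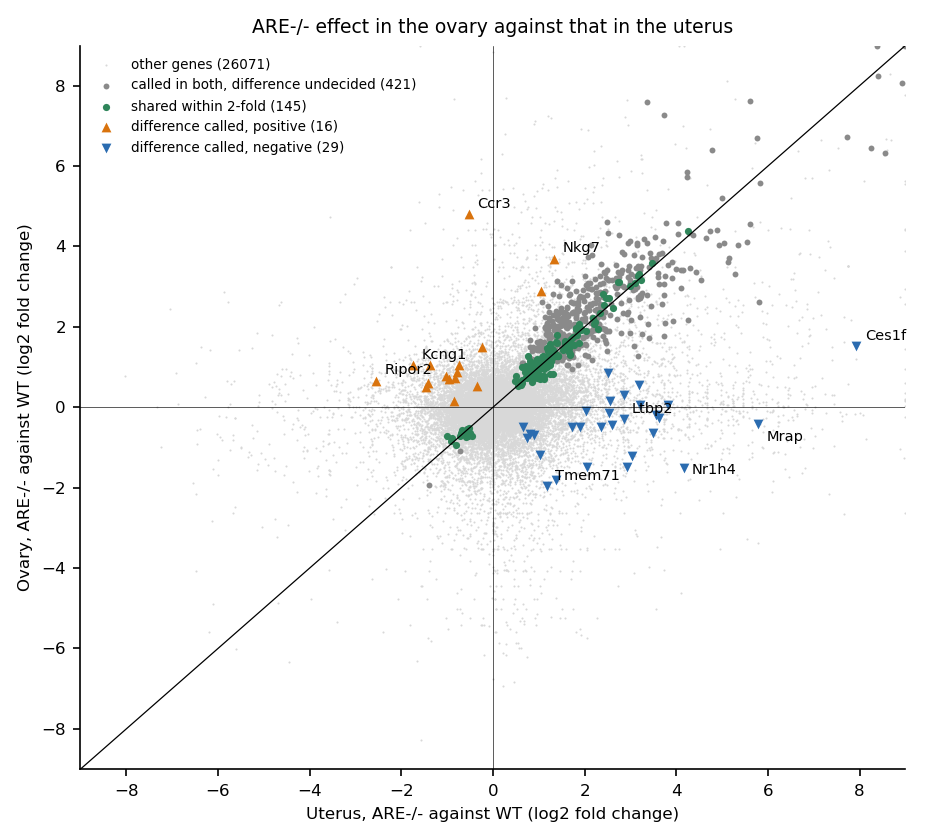
Log2 fold change of ARE-/- over WT in the uterus (x axis) and the ovary (y axis) for each of 26682 genes; the diagonal marks equal effects. Green points are the 145 genes shared within 2-fold, grey the 421 undecided, and triangles the 45 called different (16 positive, 29 negative), which lie away from the diagonal; 25 genes beyond 9 log2 units are drawn at the edge.

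The shared response was led by genes of antigen presentation and by interferon-induced GTPases. In 8 lists of interferon and antigen presentation genes with 97 tested members, 76 rose in both organs. Of the members, 26 were shared within 2-fold, 50 rose in both with an undecided difference, and none had an organ difference that passed. Over all genes tested, 550 (2.06%) rose in both, 145 (0.543%) were shared and 45 (0.169%) had a called organ difference. No call among 97 genes is near that last share, so it does not show that these families respond alike. The median organ difference over the 97 was 0.12, against -0.04 over all genes tested. These lists were chosen with results of these data known. All 10 immunity-related GTPases rose in both organs, with 5 shared, and the median log2 fold change was 3.9 in the ovary and 3.89 in the uterus. All 11 guanylate-binding proteins rose in both, with 1 shared and 10 undecided. All 11 genes of MHC class II, which shows peptides to CD4 T cells, rose in both, with 4 shared. Of 12 genes of MHC class I and its subunit, 12 rose in the uterus and 11 in the ovary. Of 12 genes that make or load class I peptides, 10 rose in the uterus, 9 in the ovary and 7 were shared. Of 12 core genes of the Ifng pathway, 5 rose in the uterus and 6 in the ovary. Of 9 CXCR3 chemokine genes, 7 rose in the uterus and 8 in the ovary. Of 20 type I interferon and antiviral genes, 14 rose in each organ. Their uterus count was 5 without uterus WT replicate 1 and 4 without uterus WT replicate 3. Their ovary count was 5 without ovary ARE-/- replicate 3. With the doubted library, uterus ARE-/- replicate 1, left out, class II genes rose in 10 of 11 in the uterus and 11 of 11 in the ovary, and 1 peptide processing gene gained a positive organ difference.

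Irgm2, an immunity-related GTPase, gave the smallest organ difference of the 10 shared genes described. Its level was 31.9, 52.6 and 30 CPM in the WT uterus, 203, 428 and 351 in the ARE-/- uterus, 32.1, 44.3 and 29.1 in the WT ovary and 293, 344 and 267 in the ARE-/- ovary. Both organs started from one range and ended in overlapping ranges. The rise was 3.10 in each, and the organ difference was 0.00 with a computed 95% interval of -0.63 to 0.63. The SE of that difference, 0.30, was below the 0.32 of either organ's own effect. It was taken as the log2 value over the root of F, which is unreliable at a value this close to 0. The interval is therefore likely too narrow, and the place of Irgm2 among the shared genes rests on it. Tap1, a pump that carries peptides to class I molecules, rose from 46.2, 57.6 and 46.5 to 326, 338 and 327 CPM in the uterus and from 27.3, 31.1 and 25.3 to 242, 258 and 229 in the ovary. Its ARE-/- libraries lay closely together in both organs, and the difference was 0.40 (-0.08 to 0.89). B2m, the class I light chain, went from 411, 582 and 445 to 2508, 2470 and 3342 CPM in the uterus and from 241, 278 and 199 to 1455, 1944 and 1361 in the ovary. The difference for B2m was 0.20 (-0.44 to 0.83), although its level was lower in the ovary at both genotypes.

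The other shared genes among the 10 with the largest effects were the class I heavy chain H2-K1 (difference 0.37), the class II genes H2-Aa (0.04), H2-DMb1 (0.09) and Cd74 (0.15), the GTPases Iigp1 (0.11) and Ifi47 (-0.05) and the guanylate-binding protein Gbp3 (-0.16). Each of these 7 intervals lay between -0.97 and 0.99. Irf1, a transcription factor induced early by interferons, was shared as well, with a rise of 1.97 in the ovary and 1.81 in the uterus. Cxcl9, a ligand of CXCR3 on T cells, rose by 6.70 and 5.77, and Cxcl10 by 3.44 and 3.99; neither difference passed (adjusted p = 0.39 and 0.72).

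Some members of these families had wider gaps that did not pass the test. Over the 97 members of the 8 lists the organ difference ran from -2.22 to 4.03. The highest value was that of Xcl1, on the CXCR3 chemokine list, which is described with the cytotoxic genes below. Gbp8 rose by 1.73 in the ovary and 3.41 in the uterus (difference -1.68 ± 0.50, adjusted p = 0.17). The GTPase F830016B08Rik rose by 1.77 and 3.74 (difference -1.97 ± 0.61, adjusted p = 0.18). H2-Q7, a class I gene, rose by 4.18 in the ovary and 3.30 in the uterus (difference 0.88 ± 0.27, adjusted p = 0.18), and H2-T23 by 1.85 and 3.00 (difference -1.15 ± 0.39, adjusted p = 0.21). Socs1, an inhibitor of the receptor's kinases, rose in the ovary by 1.45, and its value in the uterus was 0.26 (difference 1.18 ± 0.42, adjusted p = 0.23). H2-Q7, other H2-Q and H2-T genes and Tgtp1 have near-identical copies, and reads mapping to several places were counted for each, so the value of a single copy is uncertain.

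The gamma-activated site (GAS) and the interferon-stimulated response element (ISRE) are short sequences found before many interferon-induced genes. Both were searched in windows of 300 bases around gene starts (RefSeq, GRCm38.p6), as TTCNNNGAA for GAS and, for ISRE, as GAAA, any 2 bases and GAAA again, or the reverse complement of this. The letters of GAS read the same on both strands. Stretches before the start are shown, 5′ to 3′ on the gene's strand with the matches in capitals. Of the shared genes with the largest effects, only those in which a match was found are shown. The others shown are Irf1, 2 further GTPases with the same pair of matches, and 1 gene whose organ difference was called.
Irgm2 (chr11:58214898-58214926, plus strand, GAS and ISRE): ccatTTCCAGGAActGAAACTGAAAgctg
Igtp (chr11:58199507-58199535, plus strand, GAS and ISRE): ccatTTCTAGGAActGAAACTGAAAgctg
Tgtp1 (chr11:48992310-48992338, minus strand, GAS and ISRE): ccatTTCCAGGAAtcGAAACTGAAAccta
Gbp3 (chr3:142559992-142560021, plus strand, 2 overlapping ISRE): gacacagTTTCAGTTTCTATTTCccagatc
B2m (chr2:122147539-122147566, plus strand, ISRE): taagaacatGAAACTGAAAatgggaaag
Irf1 (chr11:53769915-53769941, plus strand, GAS): cagcctgatTTCCCCGAAatgatgagg
Nkg7 (chr7:43436909-43436935, plus strand, GAS): cccaaggtcTTCCAGGAAaccagttgt

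In the 3 GTPase genes the ISRE letters began 2 bases after the GAS letters. Igtp and Tgtp1 were picked for having this pair, so the spacing is a description of the genes shown. In Gm12250, of the same list, more bases lay between GAS and ISRE, and the ISRE letters were those of the reverse complement. Of the 7 windows of that list, 5 held GAS and 6 held ISRE. Of the 10 shared genes described, 8 had a window, and the others were not searched. Among the 10 windows of these 8 genes, 1 held GAS and 3 held ISRE, so most held no match. Over the 129 windows of shared genes that rose, 9.30% held GAS and 12.4% held ISRE. Over the 316 windows of genes that rose in both organs with an undecided difference, 13.3% held GAS and 20.6% held ISRE. All 18799 windows of tested genes gave 7.14% and 3.21%. Among 28 windows of genes with a called organ difference, 2 (7.14%) held GAS and 0 held ISRE. A match is a description of these letters and not a bound site, and windows of 1 gene overlap in part.

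Of the 29 genes with a higher response in the uterus, 23 rose in the uterus and were not called in the ovary, 5 rose in the uterus and fell in the ovary, and 1 rose in both. Tests on whole organs cannot tell fewer cells of a type from less RNA per cell. Ltbp2 (chromosome 12, 84829986 to 84923306, minus strand), a matrix protein that binds elastic microfibrils, had the smallest adjusted p of all genes. It was 5.56, 4.46 and 4.33 CPM in the WT uterus and 35.5, 23 and 45.3 in the ARE-/- uterus. In the ovary it was 29.1, 31.9 and 33.0 in WT and 27.2, 31.9 and 17.3 in ARE-/-. The uterus groups did not overlap, the ovary groups did, and the ARE-/- uterus reached the level of the ovary. The organ difference was -3.15 ± 0.36 (SE; 95% interval -3.92 to -2.39; adjusted p = 0.0048). Ltbp2 was the only gene of the 45 called under every one of 25 alternative settings. The antisense transcript D030025P21Rik overlaps Ltbp2 and had a difference of -4.24, but the counting did not use strand, so reads of this pair cannot be told apart. Of 45 called genes, 17 overlapped another tested gene.

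Ces1f and Mrap are described together here after their values were seen. Ces1f, a carboxylesterase of liver and fat, had 0.0567, 0.449 and 0.151 CPM in the WT uterus and 139, 15.8 and 14.3 in ARE-/- replicates 1, 2 and 3. Its value in uterus WT replicate 1 lay below the level of 3 counts there, 0.0798 CPM. Ovary levels were 9.82, 15.9 and 14.7 in WT and 26.9, 53.1 and 36.7 in ARE-/-. The difference was -6.40 ± 1.17 (adjusted p = 0.048). Mrap, an accessory protein of melanocortin receptors found in adrenal and fat, had 0.397, 0.538 and 0.403 CPM in the WT uterus and 52.6, 16.9 and 5.54 in ARE-/-, and 33.8, 56.4 and 31.6 in the WT ovary and 21.3, 20.6 and 49.4 in ARE-/-. Its difference was -6.21 ± 1.09 (adjusted p = 0.043). Both genes ran in the order of the summed fat markers across the 3 ARE-/- uterus libraries. So did Vnn1, Paqr9, H2-Q10 and Snhg11 of the other genes with a higher response in the uterus, whereas Ltbp2, Slfn4 and C2 did not. An order over 3 libraries can match without any link, and the share of all genes in this order was not counted. The summed red cell markers (4051, 758 and 475 CPM) and Inha (145, 9.33 and 9.06 CPM) ran in this order too. In ARE-/- ovary replicates 2, 3 and 6 the fat sum was 397, 689 and 23.3 CPM. Neither Ces1f nor Mrap ran in the order of that sum there. The part of fat, red cells or granulosa cells in these differences was not tested. With uterus ARE-/- replicate 1 left out, Ces1f was at -4.48 (adjusted p = 0.020) and Mrap at -5.05 (adjusted p = 0.036). Without it H2-Q10 was at -2.98, Snhg11 at -2.37, Vnn1 at -3.61 and Paqr9 at -3.44, each still called.

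Nr1h4, the bile acid receptor FXR, had 0.0567, 0.0897 and 0.0503 CPM in the WT uterus and 1.46, 0.333 and 1.95 in ARE-/-. In the ovary it had 11.3, 7.37 and 15.7 in WT and 3.44, 3.69 and 4.98 in ARE-/-. Its order across the ARE-/- uterus libraries differed from that of the fat markers, and the 2 ovary groups did not overlap. The uterus rise was 4.16, the ovary value of -1.50 did not pass (adjusted p = 0.15), and the difference was -5.66 ± 0.88 (adjusted p = 0.021). The WT uterus values rest on 2, 4 and 2 counts. Vnn1, an enzyme that releases pantothenate, went from 0.794, 0.763 and 1.31 to 15.8, 10.2 and 9.35 CPM in the uterus, with 28.0, 45.6 and 17.0 in the WT and 13.5, 41.5 and 20.1 in the ARE-/- ovary (difference -3.89 ± 0.72). Paqr9, a membrane receptor-like protein, differed by -3.76 ± 0.71, and the insulin receptor substrate Irs2 by -2.13 ± 0.33. An antisense transcript, 9530052E02Rik, overlaps Irs2 and was called with it.

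Some genes known from immune cells or defence were among the 29 as well, grouped here after their values were seen. Complement C2, which with C4b forms the classical C3 convertase, had 15.1, 26.8 and 15.2 CPM in the WT uterus and 158, 124 and 239 in ARE-/-, against 76.3, 120 and 67.0 in the WT ovary and 114, 154 and 120 in ARE-/-. The uterus groups were far apart and the ovary groups overlapped (difference -2.63 ± 0.46, adjusted p = 0.038). C4b rose in both organs, by 2.73 in the ovary and 3.20 in the uterus. Slfn4, a Schlafen family member of myeloid cells, went from 2.30, 2.00 and 1.46 to 9.87, 18.0 and 37.0 CPM in the uterus. Ovary levels were 10.2, 6.83 and 7.17 in WT and 4.81, 3.17 and 7.64 in ARE-/-, with overlap (difference -4.12 ± 0.72). H2-Q10, a secreted class I molecule, went from 1.65, 0.897 and 1.13 to 31.9, 12.4 and 7.68 CPM in the uterus and stayed between 8.33 and 12.8 in all 6 ovary libraries (difference -3.78 ± 0.65). It shares sequence with other H2-Q genes. Nlrp10, a member of the NLR family, differed by -3.53 ± 0.58. Tnfaip2 rose in both organs, by 2.52 in the uterus and 0.86 in the ovary, and the sizes differed by -1.66 ± 0.32 (adjusted p = 0.0499).

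Itga11, a collagen-binding integrin chain, differed by -2.67 ± 0.49, and the secreted matrix protein Srpx2 by -2.40 ± 0.41. The long noncoding host gene Snhg11 differed by -3.15 ± 0.52, Susd3 by -2.40 ± 0.44, Syngr1 by -3.03 ± 0.57, AU020206 by -2.23 ± 0.28, the phosphatase Dusp4 by -2.86 ± 0.54 and the ceramidase Asah2 by -1.15 ± 0.19. In all 29 the mean WT level was higher in the ovary than in the uterus, and in 28 every WT ovary library lay above every WT uterus library. Over all genes, 13016 had a higher mean in the WT ovary, of which 9559 had a negative organ difference. Every WT ovary library lay above every WT uterus library in 6460 genes (24.2%), of which 5183 had a negative difference. Of the 16 called positive, 15 had every WT uterus library above every WT ovary library. Over all genes that held for 5757 (21.6%), of which 4533 had a positive difference. The WT libraries enter both quantities, so this is a description.

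**Figure D2:**
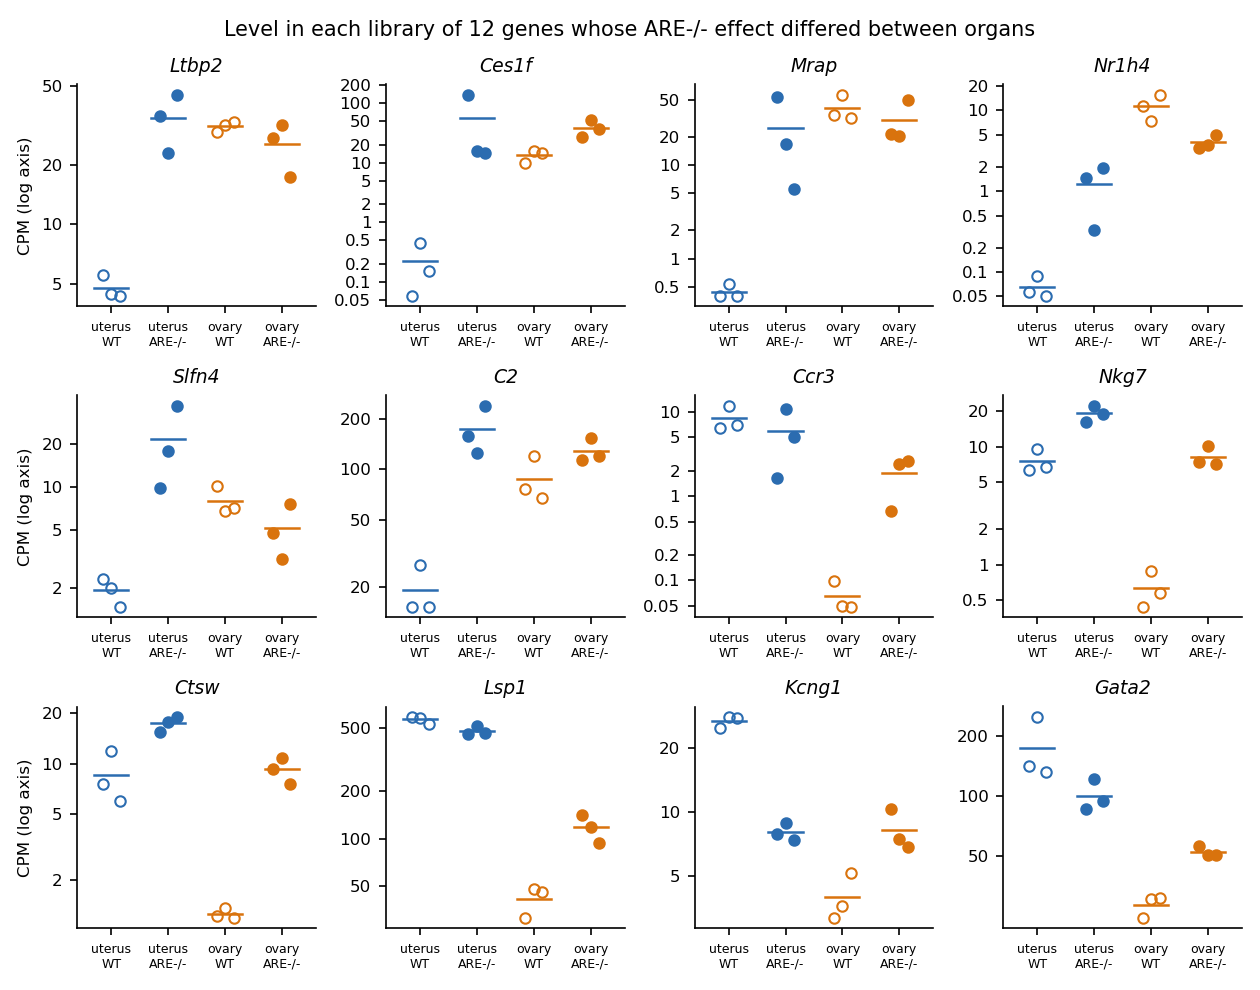
CPM on a log axis in each library (points) with the group mean (line) for 12 genes whose organ difference was called; blue is uterus, orange is ovary, open points are WT and filled points ARE-/-. In Ltbp2, Ces1f, Mrap, Nr1h4, Slfn4 and C2 the uterus points moved up, and in Nkg7, Ctsw, Lsp1 and Ccr3 the ovary points moved up more.

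Of the 16 genes with a higher response in the ovary, 6 fell in the uterus and were not called in the ovary, 5 fell in the uterus and rose in the ovary, 3 rose in the ovary alone and 2 rose in both. The 2 that rose in both are markers of cytotoxic cells. Nkg7, a granule protein of natural killer and CD8 T cells (chromosome 7, 43086497 to 43087673, plus strand), had 6.41, 9.67 and 6.77 CPM in the WT uterus and 16.3, 22.4 and 19.1 in ARE-/-. In the ovary it had 0.438, 0.881 and 0.576 in WT and 7.48, 10.1 and 7.17 in ARE-/-. Neither organ's groups overlapped, and the ARE-/- ovary libraries lay in the range of the WT uterus or just above it. The rises were 3.70 in the ovary and 1.34 in the uterus (difference 2.36 ± 0.40, adjusted p = 0.029). Ctsw, a protease of the same cells, had 7.55, 12 and 5.99 CPM in the WT uterus, 15.5, 17.9 and 19.2 in ARE-/-, 1.22, 1.35 and 1.18 in the WT ovary and 9.30, 10.8 and 7.55 in ARE-/-. Its rises were 2.88 and 1.04 (difference 1.84 ± 0.34, adjusted p = 0.047).

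The whole list of 15 CD8 and cytotoxic genes held these 2 calls and no negative one. Its median organ difference was 1.55, 12 of 15 values were above 0, 13 members rose in the ovary and 7 in the uterus. The median with 1 library left out ranged from 1.22 to 1.85, and the number of positive calls from 0 to 4. The count rising in the uterus was 3 without uterus WT replicate 1 and 4 without uterus WT replicate 3. The CD8 chains themselves went the other way without passing: Cd8a rose by 4.03 in the ovary and 5.35 in the uterus (difference -1.32 ± 0.44, adjusted p = 0.21), and Cd8b1 by 3.71 and 5.16 (difference -1.45 ± 0.49, adjusted p = 0.22). Cd8a was 0.227 to 0.561 CPM in the WT uterus and 0.438 to 0.588 in the WT ovary, so the WT organs started level. Gzmb, a killing protease, was 12.1, 27.7 and 10.2 CPM in the WT uterus and 9.42, 25.2 and 10.3 in ARE-/-, and 0.195, 0.636 and 0.528 in the WT ovary and 2.69, 4.70 and 3.63 in ARE-/-. It rose in the ovary alone, by 3.01, and its difference of 3.17 ± 0.84 did not pass (adjusted p = 0.13). Klrg1, a receptor of mature killer cells, had a difference of 2.98 ± 1.07 (adjusted p = 0.24), and Xcl1, a chemokine of the same cells, 4.03 ± 0.91 (adjusted p = 0.085).

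Natural killer receptor genes had a median organ difference of 1.63 over 11 members, with 9 above 0 and none called; 5 rose in the ovary, and in the uterus 2 rose and 1 fell. With 1 library left out, 2 to 7 rose in the ovary and 0 to 2 in the uterus. Il15, the cytokine that sustains these cells, was 19.2, 11.3 and 21.0 CPM in the WT uterus and 9.07, 9.64 and 6.95 in ARE-/-, and 2.31, 2.74 and 2.06 in the WT ovary and 5.12, 7.15 and 3.80 in ARE-/-. Its groups did not overlap in either organ and moved in opposite directions, yet neither organ's change passed, and nor did the difference of 2.18 ± 0.47 (adjusted p = 0.076). The 16 genes of the T cell receptor complex rose in both organs in 14 cases, all undecided, with a median difference of -0.23. Among them Trbc1 had a difference of 1.74 ± 0.46 (adjusted p = 0.13).

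Ccr3, the eotaxin receptor of eosinophils, had 6.47, 11.9 and 6.94 CPM in the WT uterus and 1.66, 10.9 and 5.10 in ARE-/-. Ovary levels were 0.0972, 0.049 and 0.048 in WT, from 8 counts in all, and 0.661, 2.40 and 2.64 in ARE-/-, from 240. It rose in the ovary by 4.81, its value in the uterus was -0.52 with overlap, and the organ difference was 5.33 ± 0.98 (adjusted p = 0.045). Of 7 tested eosinophil genes it was the only one called, and 6 had a value above 0. With each of 12 libraries left out in turn, Ccr3 was called in 3 fits, with an adjusted p of up to 0.123. Lsp1, an actin-binding protein of leukocytes, was 31.2, 48.0 and 45.5 CPM in the WT ovary and 141, 118 and 94.4 in ARE-/-, against 595, 581 and 536 in the WT uterus and 464, 521 and 467 in ARE-/- (difference 1.74 ± 0.25, adjusted p = 0.019). The uterus groups did not overlap either, and the uterus value of -0.24 did not pass.

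B and plasma cell genes had a median difference of 1.35, with 14 of 15 above 0, none called, and 8 rising in the ovary against 3 in the uterus. Ovary ARE-/- replicate 3 carried much of this: without it the median was 0.40, 11 were above 0 and 1 rose in the ovary. The uterus count was 0 without uterus WT replicate 1 or 3 and 1 without uterus WT replicate 2 or uterus ARE-/- replicate 1. Pou2af1, a B cell coactivator, was 4.22, 15.3 and 0.849 CPM in ARE-/- ovary replicates 2, 3 and 6 (difference 4.19 ± 1.28, adjusted p = 0.18). Of 11 neutrophil genes, 8 rose in the uterus and 2 in the ovary, with a median difference of -1.2 and none called. The uterus count was 3 without uterus WT replicate 3 and 5 without uterus WT replicate 1 or uterus ARE-/- replicate 1, and the ovary count was 1 without ovary ARE-/- replicate 3 or without either of these WT libraries. S100a9, a calcium-binding protein stored in neutrophils, went from 1.53, 1.21 and 0.855 to 81.5, 65.2 and 92.8 CPM in the uterus. In the ovary it was 0.243, 0.294 and 0.384 in WT and 0.637, 0.480 and 1.51 in ARE-/-. The difference was -4.55 ± 1.56 (adjusted p = 0.22), and that of its partner S100a8 was -4.26 ± 1.60 (adjusted p = 0.26). Each ARE-/- uterus library lay above every ovary library for both genes.

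P4ha2, an enzyme that hydroxylates collagen, was 69.5, 63.4 and 71.0 CPM in the WT uterus and 21.3, 30.2 and 25.1 in ARE-/-, and 13.6, 11.3 and 20.5 in the WT ovary and 26.1, 19.8 and 22.7 in ARE-/-. It fell by 1.41 on the log2 scale in the uterus, its ovary value of 0.60 did not pass, and the difference was 2.01 ± 0.28 (adjusted p = 0.014). Kcng1, a potassium channel subunit, was 25.1, 28.2 and 27.7 CPM in the WT uterus, 7.88, 8.92 and 7.43 in ARE-/-, 3.16, 3.62 and 5.16 in the WT ovary and 10.4, 7.48 and 6.84 in ARE-/-. The groups were apart in both organs, the ARE-/- libraries of the organs overlapped, and the difference was 2.79 ± 0.43 (adjusted p = 0.021). Ripor2 was 132, 132 and 140 CPM in the WT uterus and 8.76, 38.7 and 21.9 in ARE-/-, against 12.6 to 13.2 in the WT and 15 to 24.5 in the ARE-/- ovary (difference 3.21 ± 0.60). Gpr153 (1.95 ± 0.36), Ccdc106 (1.79 ± 0.32) and Sptssa (1.01 ± 0.19) also fell in the uterus with no ovary call. Rprd1b (0.89 ± 0.17) rose in the ovary with no uterus call.

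Collagen and matrix genes lay above 0 in 18 of 18 cases with a median organ difference of 1.52, but none passed. In the uterus 13 of 18 fell. In the ovary none was called, and the median log2 fold change was 0.53. Col1a1 was 7137, 4086 and 7126 CPM in the WT uterus and 1820, 2755 and 1497 in ARE-/-, and 533, 606 and 683 in the WT ovary and 2242, 944 and 680 in ARE-/-. The uterus groups were apart, the ovary groups overlapped, and the difference was 2.68 ± 0.65 (adjusted p = 0.10). Col3a1 differed by 2.05 ± 0.55 (adjusted p = 0.13) and Col6a3 by 2.79 ± 0.70 (adjusted p = 0.12). The count of falls in the uterus rested on single libraries: it was 2 without uterus ARE-/- replicate 1, 0 without uterus WT replicate 1 or uterus WT replicate 3, and 10 without uterus WT replicate 2, where 5 organ differences of the list passed. The median difference stayed between 1.23 and 1.81 with each library left out in turn.

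A total of 10 genes were called in both organs in opposite directions. In 5 the ovary rose and the uterus fell. Gata2, a transcription factor needed for the progesterone response of the endometrium, was 141, 249 and 132 CPM in the WT uterus and 86.0, 121 and 94.1 in ARE-/-, and 24.4, 30.4 and 30.7 in the WT ovary and 56.0, 50.8 and 50.4 in ARE-/-. Neither organ's groups overlapped, and the difference was 1.67 ± 0.29 (adjusted p = 0.036). It was the 1 call among 18 receptivity and progesterone response genes, whose median was 1.17 with 14 above 0. Without uterus WT replicate 2 that median was 0.34 with 10 of 18 above 0, and Gata2 was at 1.32. Gata2 was called in 5 of 12 fits with 1 library left out, with an adjusted p of up to 0.122. Tmem119 (difference 2.42 ± 0.38), a membrane protein known from bone cells and microglia, was 230, 102 and 195 CPM in the WT uterus, 75.2, 65.9 and 63.8 in ARE-/-, 18.0, 16 and 24.1 in the WT ovary and 48.2, 37.8 and 34.8 in ARE-/-. The other 3 were the matrix metalloproteinase Mmp17 (1.79 ± 0.30), the adrenomedullin co-receptor Ramp2 (1.56 ± 0.23) and Gm42890 (1.68 ± 0.26), which overlaps Ovgp1 and Wdr77 on the same strand, so that its reads cannot be separated from theirs.

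In the other 5 the ovary fell and the uterus rose. Deptor, an inhibitor of the kinase mTOR, was 20.8, 30.7 and 28.0 CPM in the WT uterus and 34.4, 60.3 and 67.8 in ARE-/-, and 93.6, 83.8 and 48.9 in the WT ovary and 28.8, 39.8 and 31.2 in ARE-/-. Its groups were apart in both organs, with a difference of -2.21 ± 0.37 (adjusted p = 0.029). Gm9920, on the other strand within the span of Deptor, differed by -3.18 ± 0.57 and cannot be told apart from it. Tmem71 had 2.55, 4.17 and 2.49 CPM in the WT uterus, 4.39, 7.69 and 8.87 in ARE-/-, 34.5, 21.2 and 23.1 in the WT ovary and 7.93, 6.86 and 5.50 in ARE-/- (difference -3.14 ± 0.51). The last pair, ENSMUSG00002076763.1 (-1.52 ± 0.22) and ENSMUSG00002076852.1 (-1.48 ± 0.24), lies inside Neat1, the noncoding RNA of paraspeckles, on the same strand. Neat1 itself had 472, 373 and 351 CPM in the WT uterus and 918, 602 and 710 in ARE-/-, and 842, 1059 and 799 in the WT ovary and 497, 584 and 592 in ARE-/-. Its difference was -1.59 ± 0.27 (adjusted p = 0.029), with an ovary value of -0.69 that did not pass (adjusted p = 0.057). Both entries are short parts of Neat1 that do not overlap each other, and their reads could also be counted for Neat1.

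**Figure D3:**
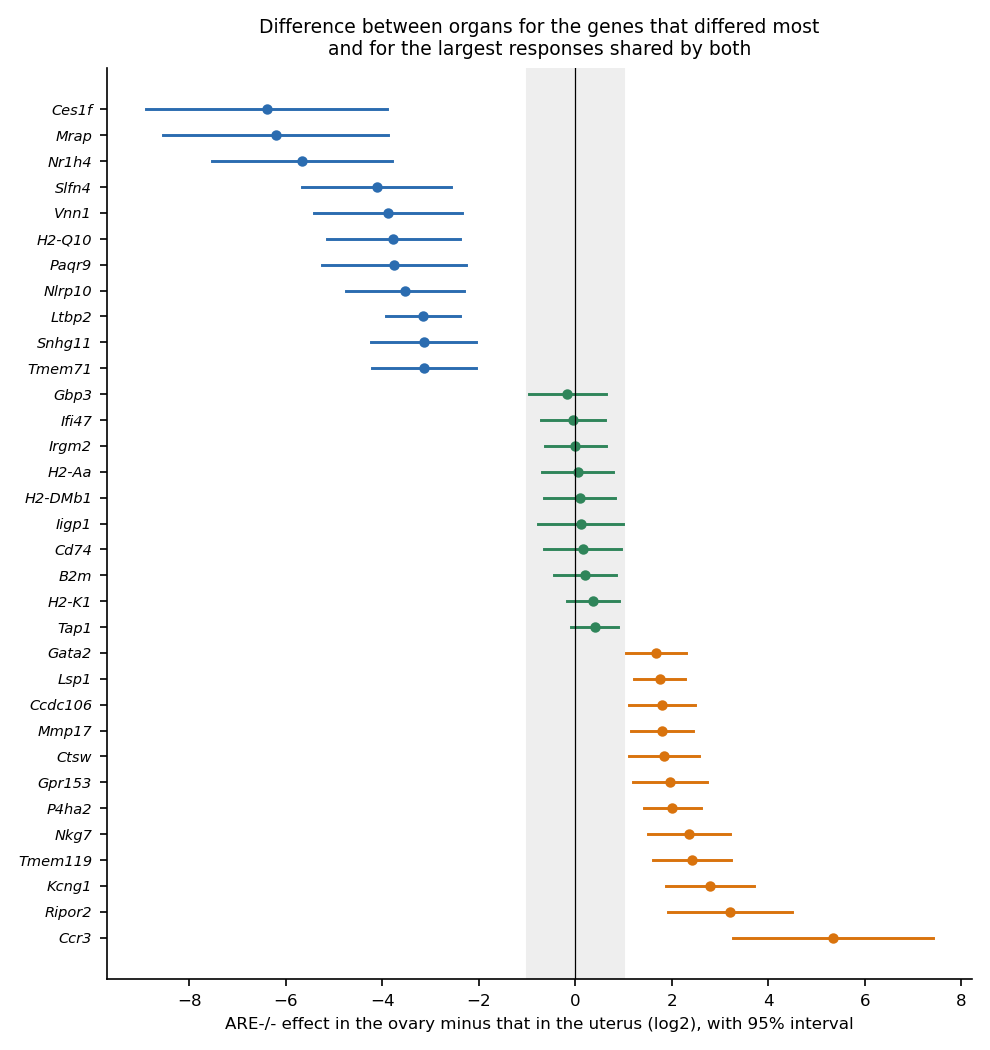
Organ difference (log2, x axis) with its 95% interval for 11 of the 12 largest negative (blue) and 12 largest positive (orange) called genes, predicted Gm and Rik names left out, and the 10 largest shared responses (green); the shaded band is within 1 log2 unit of 0. Green intervals lie inside the band, from -0.97 for Gbp3 to 0.99 for Iigp1, and the called intervals lie outside it. The Irgm2 interval is likely too narrow, since its SE is unreliable at a value this close to 0.

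Shared falls were few and small. The 17 shared genes that fell had organ differences between -0.26 (Luc7l2) and 0.30 (Sec24a). Among them were the circadian repressor Nr1d2 (-0.85 in the ovary and -0.91 in the uterus), the transport motor Kif5b (-0.63 and -0.70), the postsynaptic scaffold Homer1 (-0.75 and -0.90), the cholesterol carrier Stard4 (-0.93 and -0.80) and the ubiquitin ligase subunit Cul5 (-0.51 and -0.51). These 5 examples were chosen after their values were seen.

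Several lists were shifted to 1 side without a call. All 11 adipocyte genes had values below 0, with a median of -3.68, and 10 rose in the uterus. Plin1, the coat protein of fat droplets, was 3.23, 5.14 and 3.37 CPM in the WT uterus and 659, 132 and 67.3 in ARE-/- (difference -4.92 ± 1.14, adjusted p = 0.095). Without uterus ARE-/- replicate 1 the list's median was -1.83, 8 rose in the uterus and 1 organ difference passed. Without uterus WT replicate 1 or uterus WT replicate 3, 3 rose in the uterus. The 14 genes of ovarian steroid synthesis had a median of -2.08 with 0 above 0; without that library it was -0.55 with 5 above 0. Cyp17a1, the androgen-forming enzyme of theca cells, was 414, 71.3 and 368 CPM in the WT ovary and 72.8, 23.9 and 83.8 in ARE-/-, with overlap, and at or below 1.43 CPM in every uterus library (difference -5.15 ± 1.61, adjusted p = 0.19). Akr1c18, which breaks down progesterone, was 1070, 76.0 and 329 CPM in the WT ovary and 23.6, 0.240 and 11.4 in ARE-/- (difference -6.06 ± 2.41, adjusted p = 0.29). For the oocyte list the median went from -2.64 to 0.90 without that library, and for ovarian hormone receptors from -1.14 to 0.85, so their direction rested on it. The red cell list went from -3.05 to -1.48.

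**Figure D4:**
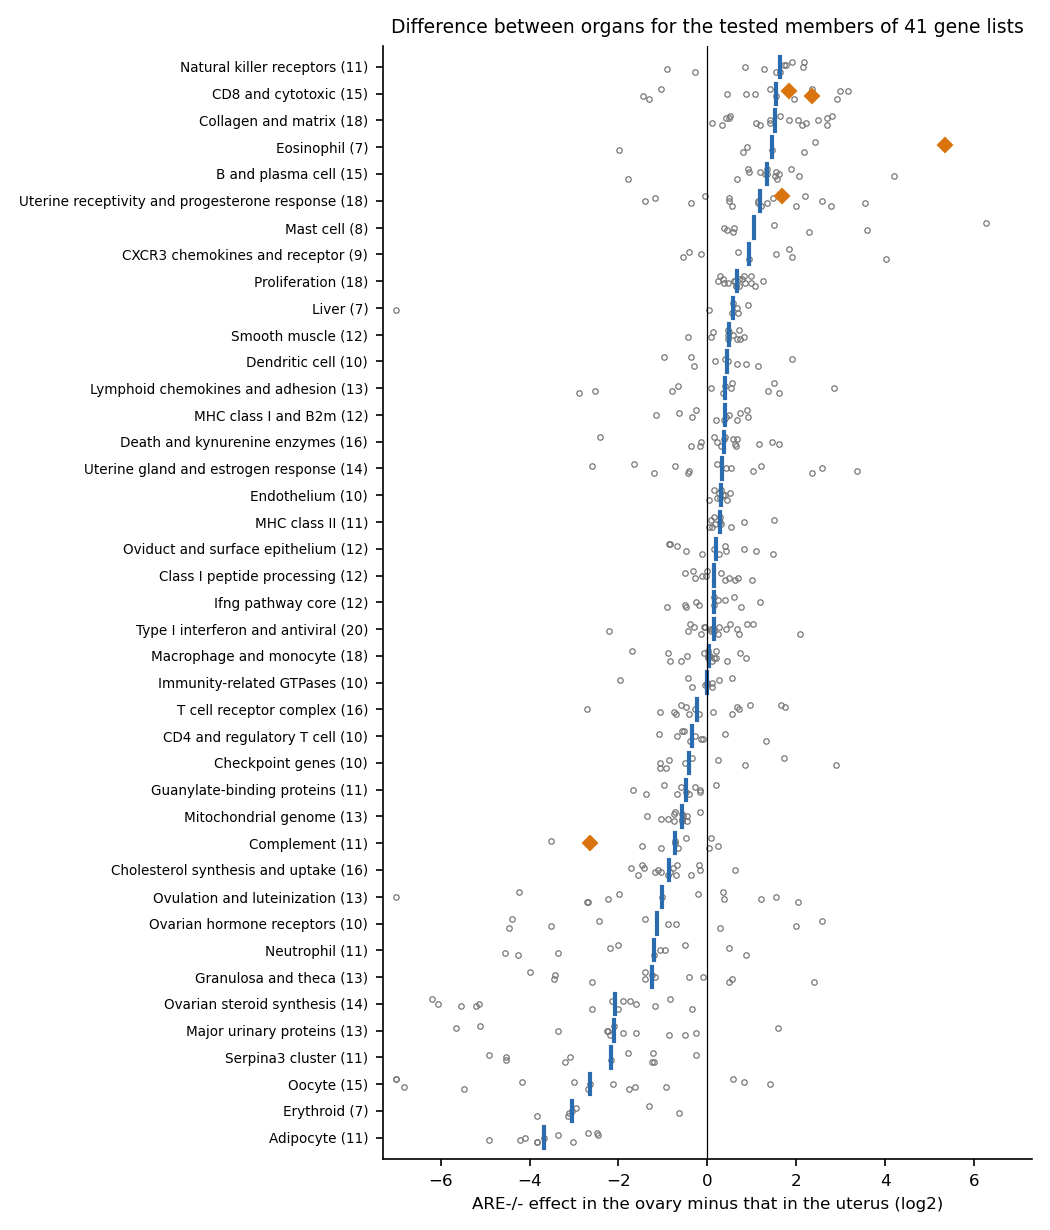
Organ difference (log2, x axis) of each tested member (circles; orange diamonds where called) of 41 gene lists, with the list median (blue bar) and the number tested in parentheses; lists are ordered by median. The immunity-related GTPase and class II lists have medians near 0 (-0.00076 and 0.28), the CXCR3 chemokine list (0.93) and the cytotoxic and collagen lists lie to the right, and adipocyte genes to the left; 4 members beyond 7 log2 units are drawn at the edge.

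Over all 41 lists, 5 of 501 distinct genes (0.998%) had a called organ difference, namely Nkg7, Ctsw, Ccr3, Gata2 and C2, and 36 were shared within 2-fold. Across genes, the ovary and uterus effects had a Pearson r of 0.283 and a Spearman rank correlation of 0.242 over 26682 genes, and 0.385 and 0.324 over the 19360 genes whose mean level reached 1 CPM. Genes are not independent replicates, and the value is a description.

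The number of called organ differences moved strongly with single libraries. It was 3 without ovary WT replicate 1 or without ovary ARE-/- replicate 2, and 7, 8, 17, 18, 19 and 25 without uterus WT 3, ovary WT 2, ovary ARE-/- 6, ovary ARE-/- 3, uterus WT 1 and ovary WT 3. It was 49 without uterus ARE-/- 3, and 236, 369 and 377 without uterus ARE-/- 1, uterus ARE-/- 2 and uterus WT 2, where all 45 genes were among those called. Without both backup libraries 1 gene was called. The signs of all 45 were kept in each of these fits. The fits reuse most of the libraries by which these genes were picked, so kept signs are no separate test of them. The half-width of the 95% interval had a median of 1.06 log2 units over all genes, so the interval of a gene at that median reached about 2-fold either way.

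**Figure D5:**
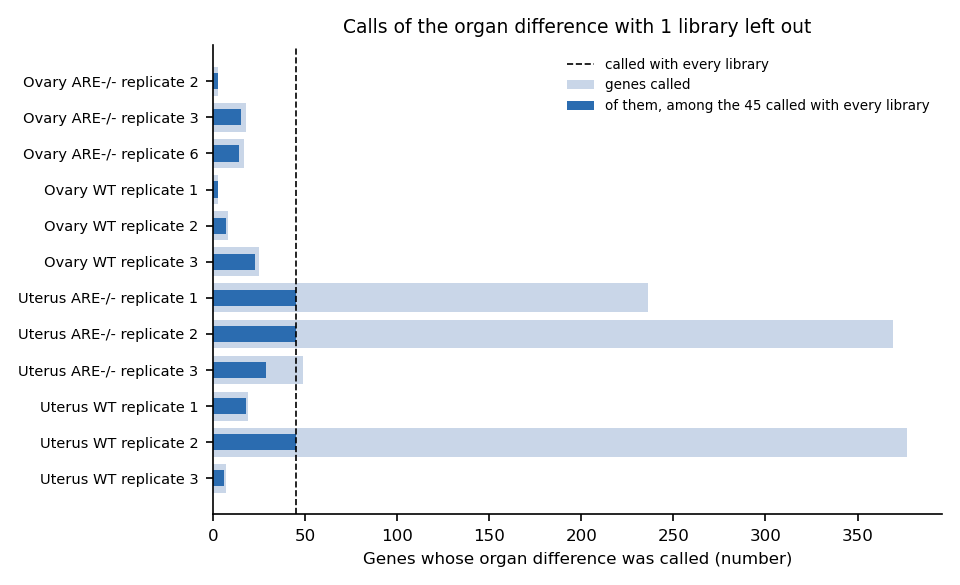
Number of genes with a called organ difference when 1 library is left out (light bars) and how many of these belong to the 45 called with every library (dark bars; dashed line at 45). The count ran from 3 to 377.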

How the data were processed

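The authors deposited raw counts per gene for whole-organ RNA of 18 libraries. Per the file headers, featureCounts 2.0.4 assigned reads to the GENCODE M32 annotation, counting each mate singly, counting reads on several places or genes for each, and not using strand. STAR and the build mm10 are named in the submitters' processing notes, whereas M32 annotates a later build; gene coordinates are given as the count tables state them. The authors' own test tables were not used. Symbols were found for 52029 of 57010 gene IDs (91.3%), and promoter windows came from RefSeq (GRCm38.p6).

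From the deposited counts, 1 model over all 18 libraries and 6 groups was fitted with edgeR 4.0.16 (R 4.3.3; TMM scaling, filterByExpr, robust quasi-likelihood F-test, Benjamini-Hochberg adjustment, threshold 0.05). The ovary effect, the uterus effect and their difference are contrasts of that model. Levels are CPM of the TMM-adjusted library size. Standard errors are the log2 value over the root of F. They are unreliable where that value is very close to 0. The common biological coefficient of variation was 0.37 with 12 residual degrees of freedom. The code was tested on simulated data. DESeq2 1.42.0 and limma 3.58.1 served as alternatives.

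The comparison, gene lists and fixed genes were chosen with earlier results of these data known. The genes named are Ifng, a fixed set, the 12 largest called differences in each direction with a symbol that is no predicted Gm or Rik name and at least 1 CPM in a group and 10 counts in each of its libraries, the 10 largest shared responses, and those called in opposite directions. The remaining called genes, and list members outside these rules, were named after their values were seen. Some results are not reported here.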

Additional observations from a re-analysis of the deposited data

Results flagged for a closer look

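The difference between the ovary and uterus effects itself passed the test (edgeR quasi-likelihood test, adjusted p under 0.05) for the genes below, each given as the log2 ovary effect minus the log2 uterus effect. The response was higher in the uterus for Ces1f (-6.40), Mrap (-6.21), Nr1h4 (-5.66), Slfn4 (-4.12), Vnn1 (-3.89), H2-Q10 (-3.78), Paqr9 (-3.76), Nlrp10 (-3.53), Gm9920 (-3.18), Ltbp2 (-3.15), Snhg11 (-3.15), Tmem71 (-3.14), Deptor (-2.21), ENSMUSG00002076763.1 (-1.52) and ENSMUSG00002076852.1 (-1.48). It was higher in the ovary for Ccr3 (5.33), Ripor2 (3.21), Kcng1 (2.79), Tmem119 (2.42), Nkg7 (2.36), P4ha2 (2.01), Gpr153 (1.95), Ctsw (1.84), Mmp17 (1.79), Ccdc106 (1.79), Lsp1 (1.74), Gm42890 (1.68), Gata2 (1.67) and Ramp2 (1.56). Gm9920, Gm42890 and both Ensembl entries share reads with overlapping genes. Ltbp2, Deptor, Ccdc106, Lsp1 and Ripor2 also overlap tested genes, on the other strand, and the counting did not use strand.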

How the results depend on the processing

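The signs of the 45 called genes were kept in each of 25 alternatives. These reuse the libraries by which the genes were picked, so this is no separate test. The adjusted p of the 45 in the edgeR test with 1 library left out was at most 0.175. How many organ differences pass depended on the tool and on single libraries. The number was 824 with DESeq2 (all 45 kept), 18 with limma voom, 5 with the 12 WT and ARE-/- libraries alone and 1 without both backup libraries; with 1 library left out it ranged from 3 to 377. Other scalings and filters gave 42 to 48. Changes within the ovary numbered 1856 with DESeq2 and 432 to 2098 with 1 library left out. Within the uterus they numbered 4453 with DESeq2, 1474 with the 12 libraries, 833 without the backups and 815 to 4657 with 1 left out. Genes called in both organs in the same direction numbered 896 with DESeq2 and 317 to 689 with 1 left out. Shared genes numbered 238 with DESeq2, 63 without the backups, 69 to 206 with 1 left out, 26 for an interval inside 1.5-fold and 353 for one inside 3-fold. Called list genes, 5 as reported, numbered 42 with DESeq2, 0 with voom, 3 with no filter on low counts, 1 with the 12 libraries, 0 without the backups and 0 to 19 with 1 left out. Called named genes, 30 as reported, numbered 11 with voom, 2 with the 12 libraries, 1 without the backups and 1 to 33 with 1 left out. The cause of these changes was not tested.

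The replicate numbers were not taken as pairing, since the labels do not state it and same-numbered uterus and ovary libraries correlated at 0.054 to 0.212 in their deviations; 5 of 7 uterus libraries correlated best with their own number. A replicate block by genotype and number called 520 organ differences (39 of the 45 kept) and 39 list genes. A replicate block by number over all libraries called 58 (21 kept), with 19 of the named genes.

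Organ differences of shared genes near 0 changed sign. Irgm2 was at -0.0124 with DESeq2, -0.0123 with RLE factors, -0.0021 with scaling within organs, -0.0207 with upper quartile factors, -0.0076 with a filter of 1 CPM, -0.0074 with none, and -0.19 and -0.0124 with the 2 replicate blocks. Ifi47 was at 0.023 with the first block. With 1 library left out, Irgm2 ranged from -0.30 to 0.24, Cd74 from -0.072 to 0.33, Gbp3 from -0.47 to 0.067, H2-Aa from -0.15 to 0.24, H2-DMb1 from -0.13 to 0.30, Ifi47 from -0.18 to 0.067 and Iigp1 from -0.095 to 0.36.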

Other observations

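Values outside the comparisons above were seen for mast cells. The summed level of the mast cell proteases Cma1 and Cpa3 was 9.99, 13.2 and 9.33 CPM in the WT uterus and 2.85, 2.18 and 0.126 in the ARE-/- uterus. In the ovary it was 5.23, 6.39 and 3.55 in WT and 1.37, 3.69 and 1.44 in ARE-/-. The uterus groups did not overlap and the ovary groups did. All 8 mast cell genes tested had an organ difference above 0, with a median of 1.06 and none called, and without uterus ARE-/- replicate 1 the median was 1.89. Without ovary ARE-/- replicate 3 it was 0.88 and 5 of the 8 lay above 0. All 18 proliferation genes also lay above 0, with a median of 0.67 and none called in either organ; without ovary ARE-/- replicate 6 the median was 0.38 with 16 above 0, and without uterus WT replicate 2 it was 0.91 and 2 fell in the uterus. All 13 genes of the mitochondrial genome lay below 0, with a median of -0.58, and 3 fell in the ovary; without uterus ARE-/- replicate 1 the median was -0.35 and 10 fell in the ovary. Without ovary ARE-/- replicate 3 or replicate 6, 1 fell.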
